A study of Mus musculus with 7 samples.

Results

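The report describes 10 genes of oxidative and methylating metabolism in the mouse bladder: the cytochromes P450 Cyp1b1, Cyp2d22, Cyp2e1, Cyp2f2, Cyp2s1, Cyp4b1 and Cyp4f15, the flavin monooxygenases Fmo1 and Fmo5, and the methyltransferase Inmt. They were taken by name from 18193 genes that have a probe set of their own on the array, and the probe set with the highest mean over the 7 arrays stood for each gene. Inmt and Cyp4f15 were selected on the rise of their intensity between newborn and adult bladder, so their values are a description and carry no test. The 10 genes have 15 probe sets in all. The 7 arrays were hybridised with RNA amplified in 2 rounds. The adult group was 3 whole bladders of adult FVB/N males, and the P1 group was 3 whole bladders of FVB/N males of postnatal day 1. All 6 bladder donors carried EGFP driven by a promoter of Actg2, the smooth muscle gamma-actin gene, and no bladder RNA was pooled. The whole-newborn array held a pool of 4 male and 4 female wild-type FVB/N animals of postnatal day 1. Although its title names bladders, the source and protocol name entire mice, and it was treated as such. Tissue and transgene therefore cannot be told apart in comparisons with this array, nor can stage and storage in the comparison of bladders, because adult bladders were kept in liquid nitrogen and newborn ones in a freezer. Sex and pooling also differ in comparisons with the whole-newborn array, as does stage for adult bladders, and these cannot be told apart from tissue either. Nothing says that the samples of a group came from separate litters, so p-values measure the spread between these samples.

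Cytochromes P450 are haem enzymes of the endoplasmic reticulum and mitochondria that insert oxygen into drugs, environmental chemicals, fatty acids and steroids, with electrons passed to them by P450 oxidoreductase or by adrenodoxin. Flavin monooxygenases oxygenate nitrogen and sulphur atoms of drugs and dietary compounds with a flavin in place of haem. Inmt transfers methyl groups from S-adenosylmethionine to tryptamine and related amines. Most of these enzymes are best known from liver, lung and gut, and the bladder lining meets their substrates and products in urine.

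The promoters of the 2 genes chosen for their rise and of the 2 other genes whose adult bladder values passed the test are shown because these genes were high together on the adult arrays. Each window runs from 250 bases before to 50 bases after the RefSeq start in GRCm38.p6, 5′ to 3′ on the gene's strand. Capitals mark matches to TATAAA (the TATA box), GCGTG (the core bound by the aryl hydrocarbon receptor), AGGTCA (the half-site of many nuclear receptors) or GGGCGG (the GC box), searched on both strands, so that a match on the other strand appears as its reverse complement. The windows are chr6:55174941-55175240, minus strand, for Inmt, chr17:32685409-32685708, plus strand, for Cyp4f15, chr3:97628769-97629068, plus strand, for Fmo5, and chr7:25816476-25816775, minus strand, for Cyp2s1. The Fmo5 window lies inside the annotated span of the gene.
Inmt: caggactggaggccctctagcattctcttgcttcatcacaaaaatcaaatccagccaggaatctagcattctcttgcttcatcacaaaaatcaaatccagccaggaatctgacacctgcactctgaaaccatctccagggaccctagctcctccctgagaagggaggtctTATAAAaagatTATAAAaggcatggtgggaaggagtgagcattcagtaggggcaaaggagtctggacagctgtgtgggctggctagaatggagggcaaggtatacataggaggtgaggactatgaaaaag
Cyp4f15: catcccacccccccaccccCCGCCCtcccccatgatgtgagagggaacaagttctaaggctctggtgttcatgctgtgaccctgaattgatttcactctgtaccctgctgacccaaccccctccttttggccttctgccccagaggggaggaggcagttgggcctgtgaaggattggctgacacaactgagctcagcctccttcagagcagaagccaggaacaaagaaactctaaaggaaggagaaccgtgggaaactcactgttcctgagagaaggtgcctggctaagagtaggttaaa
Fmo5: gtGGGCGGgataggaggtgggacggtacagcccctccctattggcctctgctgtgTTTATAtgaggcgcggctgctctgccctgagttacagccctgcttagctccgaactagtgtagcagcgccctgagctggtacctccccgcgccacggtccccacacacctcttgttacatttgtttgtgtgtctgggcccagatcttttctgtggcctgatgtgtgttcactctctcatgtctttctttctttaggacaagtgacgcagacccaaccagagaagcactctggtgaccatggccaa
Cyp2s1: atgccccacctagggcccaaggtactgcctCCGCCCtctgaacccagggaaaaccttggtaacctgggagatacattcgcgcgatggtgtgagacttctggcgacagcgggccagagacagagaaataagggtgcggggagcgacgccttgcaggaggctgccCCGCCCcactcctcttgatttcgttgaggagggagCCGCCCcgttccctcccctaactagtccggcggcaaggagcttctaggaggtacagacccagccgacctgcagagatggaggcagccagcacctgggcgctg
The Inmt window held TATAAA at 80 and again at 69 bases before the start, and it held no CG dinucleotide. It also held an exact direct repeat of 46 bases, whose copies begin at positions 16 and 62 of the window. The Cyp4f15 window matched the GC box once on the other strand, and Cyp2s1 matched it 3 times there. Fmo5 matched the GC box near the far end of its window and TATAAA on the other strand, 195 bases before the start. GC content was 47.7% in Inmt, 55.0% in Cyp4f15, 56.0% in Fmo5 and 63.0% in Cyp2s1, against a median of 52.7% over all promoters. The number of CG dinucleotides was 2 in Cyp4f15, 10 in Fmo5 and 17 in Cyp2s1, against a median of 7. The promoter table held 8 of the 10 genes. TATAAA was found in 3 of these 8 and in 13.6% of 32851 promoters, GGGCGG in 5 of 8 and in 35.7%. The TATAAA match outside the printed windows was in Cyp2e1, 31 bases before its start. GCGTG was found in 1 of 8, Cyp1b1, and in 32.4% of promoters, and AGGTCA in 1 of 8, Cyp2f2, and in 16.3%. None of the motifs was found in all 4 printed windows.

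Values are array intensities on a linear scale, and differences are of log2(intensity + 49), adult minus P1 bladder or bladder minus whole newborn, which understates the change of dim probe sets. The median intensity was 226 to 312 on the adult arrays, 209 to 290 on the P1 arrays and 434 on the whole-newborn array. Markers of bladder were checked against the labels: the 9 urothelial markers summed to 121600 to 149600 on adult arrays, 116800 to 156100 on P1 arrays and 16350 on the whole-newborn array, and 0 of 9 passed the test between stages in either direction. The 9 smooth muscle markers summed to 296100 to 440800 on adult arrays, 282600 to 370000 on P1 arrays and 72110 on the whole-newborn array, again with 0 of 9 called between stages. Other marker lists did hold genes called between stages. In adult bladder, 3 of 4 tested adipocyte markers were called higher and 1 lower, 2 of 6 mesothelial markers higher, 2 of 8 macrophage markers higher, and 1 of 9 fibroblast markers higher and 1 lower. Of the genes called higher, the adipocyte marker Adipoq and the mesothelial marker Bnc1 had all 3 P1 values under their array medians. They passed the filter through the adult arrays where they were high, so these 2 calls are not read as results. Over all tested genes, 4.02% were called higher and 4.95% lower. Mesothelial markers summed to 45870 to 51950 in adult and 30930 to 35450 in P1 bladders, and macrophage markers to 22940 to 44440 in adult and 11780 to 18870 in P1 bladders, in both cases without overlap and with none at 0. The largest part of the mesothelial sum was Efemp1, which averaged 27200 in adult and 17580 in P1 bladders and was not called. Wt1 went the other way, at 291 in adult and 550 in P1 bladders, so the mesothelial list did not move as 1. Bnc1, Efemp1 and Wt1 were named after their values were seen. The part of mesothelial cells and macrophages in the stage differences of the 10 genes was not tested. The ratio of 3′ to 5′ signal of Actb, a sign of RNA length, was 3.84 to 5.15 on adult arrays, 1.85 to 3.70 on P1 arrays and 3.09 on the whole-newborn array. The adult and P1 ranges of this ratio did not overlap. The same ratio of Gapdh lay the other way, at 15.3 to 19.6 on adult arrays, 19.1 to 30.9 on P1 arrays and 21.4 on the whole-newborn array, with overlapping ranges. The part of RNA length in the stage differences was not tested. Adult replicate 2 had the highest spike-in signal, 2.24 times that of adult replicate 1, the array with the lowest. In whole bladders, fewer cells of a type and less RNA per cell cannot be told apart.

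**Figure D1:**
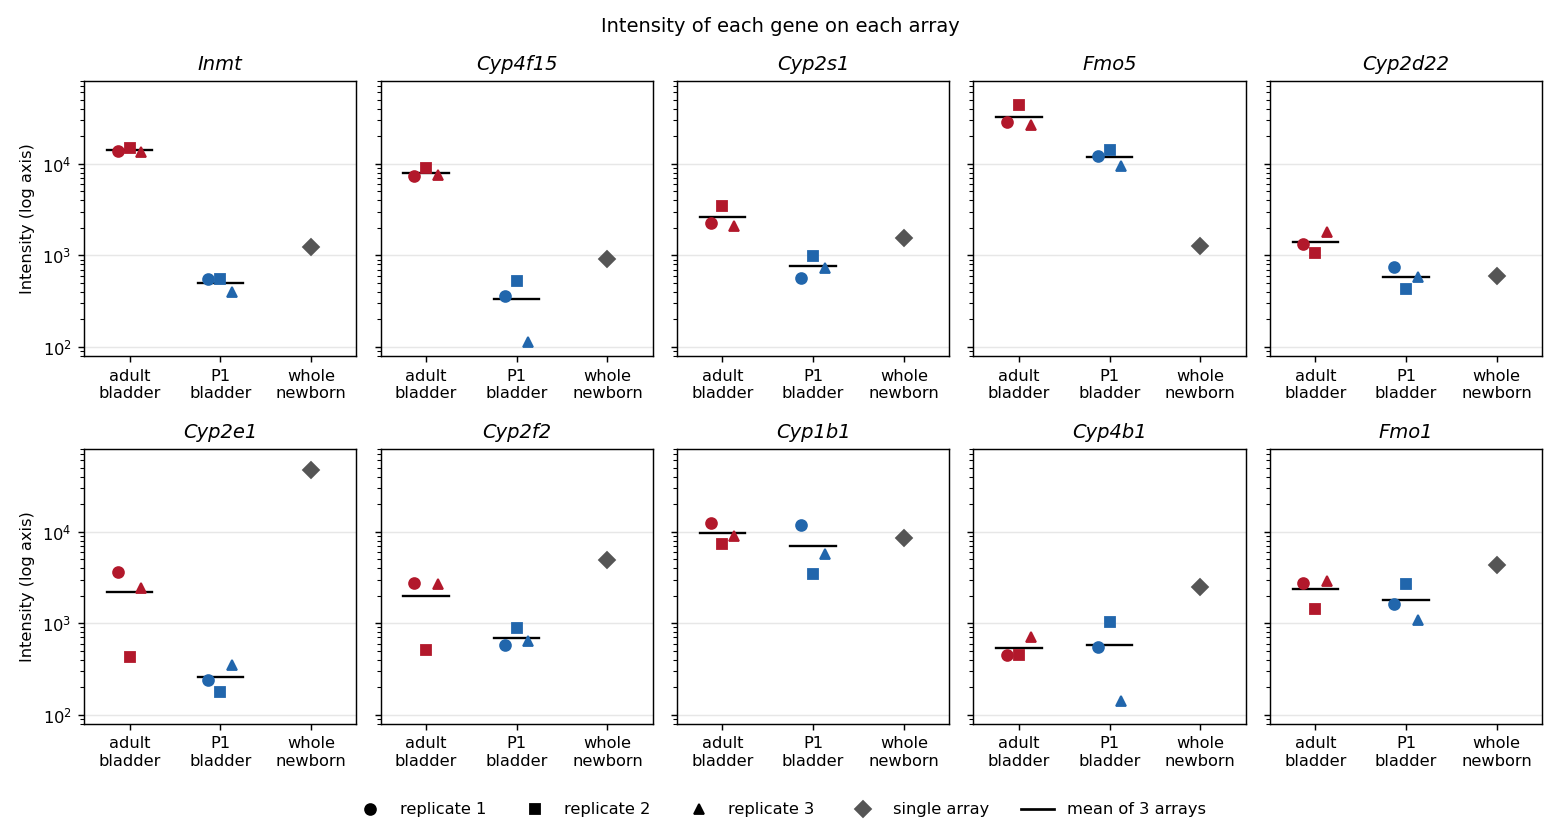
Intensity of each of the 10 genes (vertical log axis) on the adult bladder, P1 bladder and whole-newborn arrays. Symbols are single arrays and black bars are means of 3 arrays. Inmt and Cyp4f15 show adult arrays far above P1 arrays, and Cyp2e1 and Cyp2f2 show adult replicate 2 below replicates 1 and 3.

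In adult bladders Inmt and Cyp4f15 were 28.0 and 24.0 times as bright as in P1 bladders, Cyp2s1 and Fmo5 were higher by the test, and 6 genes were not called. Inmt (chromosome 6, 55170627 to 55174990, GRCm38.p6) had intensities of 13616, 14945 and 13362 in adult bladders, against 547, 549.8 and 403 in P1 bladders. Its whole-newborn value was 1229. All 3 adult arrays lay above the whole-newborn array, and all 3 P1 arrays lay below it. The mean was 13970 ± 850.1 in adult and 500.1 ± 84.0 in P1 bladders (SD, n = 3 each), a log2 difference of 4.68, which lay between 4.35 and 4.78 over the main and 15 alternative settings. Among adult arrays the highest value was 1.12 times the lowest, the narrowest adult spread of the 10 genes.

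Cyp4f15 (chromosome 17, 32685631 to 32703352) belongs to a P450 subfamily that hydroxylates the chain ends of fatty acids and eicosanoids. Its intensities were 7289, 9010.4 and 7571 in adult bladders, against 359, 522 and 115 in P1 bladders, and 923 in the whole newborn. Adult arrays all lay above and P1 arrays all below the whole-newborn array, and P1 replicate 3 was the lowest and lay under its own array's median. The mean was 7957 ± 923 in adult and 332 ± 205 in P1 bladders (SD, n = 3 each). The log2 difference was 4.57, and it ranged from 3.95 to 4.95 over the same settings.

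The genes with the pattern most like these 2 were found by Pearson's r of log2 values over the 7 arrays, among 1348 genes with an SD of at least 1. For Inmt they were Ctse (r = 0.991), a protease of the cathepsin family, Aldh3a1 (0.991), an aldehyde dehydrogenase, Abca1 (0.991), a lipid exporter, Ptprr (0.987), a protein phosphatase, and Fgf1 (0.987), a growth factor. For Cyp4f15 they were Ptprr (0.988), Inmt (0.983), Cyp4v3 (0.983), a fatty acid hydroxylase, Hsph1 (0.978), a heat shock protein, and Retnla (0.9752), a secreted protein of the resistin family. These values are a description over 7 arrays that share the step between stages. Aldh3a1 averaged 2161 ± 48.4 in adult and 57.6 ± 17.7 in P1 bladders (SD, n = 3 each). Retnla averaged 1998 ± 599 in adult and 123 ± 72.9 in P1 bladders (SD, n = 3 each). The P1 means of Aldh3a1, Retnla and Fgf1 (173) lay under the P1 array medians of 209 to 290, so their steps start from dim values.

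The other 8 genes were tested with limma in a fit over all probe sets, with p-values adjusted by Benjamini-Hochberg. Of these 8, 2 were called higher in adult bladder, 0 were called lower and 6 were not called. Over all 11930 genes tested, 4.02% were called higher and 4.95% lower. The median difference of the 8 was 1.16 on the log2 scale, against -0.01 over all genes. All 10 genes passed the filter for this comparison (above the array median on at least 3 of 6 bladder arrays). Without adult replicate 2 the count was 5, and with adult replicate 2 as the sole adult array it was 1. Without adult replicate 1, adult replicate 3 or P1 replicate 1 it was also 1, Fmo5.

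Fmo5 (chromosome 3, 97609938 to 97655287) encodes a flavin monooxygenase that also acts on ketones. Its intensities were 28219, 43277 and 26412 in adult bladders, against 12179.7, 13963 and 9369 in P1 bladders, and 1280.3 in the whole newborn. Every adult array lay above every P1 array, and every P1 array lay above the whole-newborn array. The mean was 32640 ± 9260 in adult and 11840 ± 2316 in P1 bladders (SD, n = 3 each), a log2 difference of 1.44 (SE 0.25, limma adjusted p = 0.0111). The call held under all 15 alternatives, with adjusted p between 0.00148 and 0.0463. This probe set may match more than 1 transcript by its design.

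Both further probe sets of Fmo5 were also higher in adult bladder, by different amounts. Probe set 1440899_at read 17357, 30949 and 18259.9 in adult bladders, against 1715, 2531 and 1874 in P1 bladders, and 1265 in the whole newborn. Its groups did not overlap, and its log2 difference was 3.38 (SE 0.30, limma adjusted p = 0.000836). Probe set 1421709_a_at gave 1.07 (SE 0.28, limma adjusted p = 0.0518), with 2818, 4232 and 2808 in adult and 1365, 1717 and 1471 in P1 bladders, again without overlap.

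Cyp2s1 (chromosome 7, 25802469 to 25816525) is a P450 of epithelia outside the liver that is induced through the aryl hydrocarbon receptor. Its intensities were 2254, 3449.8 and 2081 in adult bladders, against 572, 994 and 732 in P1 bladders, and 1542 in the whole newborn. Adult arrays all lay above the whole-newborn array and P1 arrays all below it. The mean was 2595 ± 745 in adult and 766.0 ± 213 in P1 bladders (SD, n = 3 each), a log2 difference of 1.70 (SE 0.33, limma adjusted p = 0.0165). The call was lost in 4 of 15 alternatives: without adult replicate 1 (adjusted p = 0.0572), without adult replicate 3 (0.0548), without P1 replicate 1 (0.0587) and with adult replicate 2 as the sole adult array (0.0917).

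Cyp2d22 (chromosome 15, 82370527 to 82380260) belongs to the CYP2D subfamily of drug-metabolizing enzymes. Its intensities were 1341, 1057 and 1782 in adult bladders, against 754, 432 and 577 in P1 bladders, and 600.2 in the whole newborn. The bladder groups did not overlap, yet the difference did not pass the test at 1.18 log2 (95% interval 0.41 to 1.95, limma adjusted p = 0.0675). Its other probe set gave 1.26 with overlapping groups (adjusted p = 0.178). The mean of both probe sets passed (1.22, adjusted p = 0.0455), as did the main probe set without adult replicate 2 (1.36, adjusted p = 0.0494).

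Cyp2e1 (chromosome 7, 140763819 to 140774990) oxidises ethanol, acetone and small solvents and is abundant in liver. Its intensities were 3674, 430.3 and 2440.4 in adult bladders, against 242, 179 and 353 in P1 bladders, and 47551 in the whole newborn. The P1 values were 0.919, 0.856 and 1.216 times their array medians. Cyp2e1 thus passed the filter between stages only with the adult arrays, where it was high. Adult replicates 1 and 3 were 8.54 and 5.67 times as bright as adult replicate 2, which was 1.22 times the highest P1 array. The log2 difference was 2.46 (95% interval 0.93 to 4.00) and was not called (limma adjusted p = 0.0589). Without adult replicate 2 it was 3.35 (adjusted p = 0.00361), and with adult replicate 2 as the sole adult array it was 0.68.

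Cyp2f2 (chromosome 7, 27119955 to 27133660), known from the secretory cells of mouse airways, where it activates naphthalene, split the adult arrays in the same way. Its intensities were 2739, 516 and 2688 in adult bladders, against 575, 883 and 635 in P1 bladders, and 4913 in the whole newborn. Adult replicates 1 and 3 were 5.30 and 5.21 times as bright as adult replicate 2, which lay below all 3 P1 arrays. The log2 difference was 1.15 (95% interval -0.16 to 2.46, limma adjusted p = 0.272). It was 1.91 without adult replicate 2 (adjusted p = 0.0127) and -0.38 with that replicate as the sole adult array.

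Adult replicates 1 and 3 also differed from adult replicate 2 in markers of other tissues. The 11 measured markers of male accessory glands, of a list of 16, summed to 10830, 618 and 10560 in adult replicates 1, 2 and 3, against 666, 506 and 418 in P1 replicates 1, 2 and 3. On the whole-newborn array they summed to 3038, and none of the 11 was at 0. Azgp1 at 1785 and Spink1 at 774, named after their values were seen, were the brightest of them there, and Svs4 read 8.52. Svs4, a seminal vesicle secretory protein, read 3149.7, 3.45 and 3861 in adult bladders, against 5.98, 0.93 and 3.98 in P1 bladders. The 8 measured adipocyte markers, of a list of 10, summed to 100700 to 106200 in adult and 62280 to 74830 in P1 bladders, none at 0. Within that list Adipoq, the adipocyte hormone adiponectin, read 1167, 466 and 1231 in adult and 51.6, 2.28 and 30.04 in P1 bladders. Lpl, lipoprotein lipase, read 32033, 10601 and 29009 in adult and 8726, 7235 and 5776 in P1 bladders. Both were thus lowest among adult arrays in replicate 2, as Cyp2e1 and Cyp2f2 were. In all, 7 of the 8 adipocyte markers and 10 of the 11 accessory gland markers were lowest there among adult arrays. The adipocyte sum was nevertheless alike on the 3 adult arrays, and Car3, named after its values were seen, read 45651, 64640.2 and 46945 in adult replicates 1, 2 and 3. Airway markers summed to 813 to 856 in adult and 942 to 1547 in P1 bladders, and hepatocyte markers to 6606 to 9930.0 in adult and 2314 to 10750 in P1 bladders. Ttr and Alb of the hepatocyte list were named after their values were seen. Ttr read 6110, 8694 and 9143 in adult and 5777, 1447 and 4542 in P1 bladders. Alb read 103, 129 and 153 in adult and 303, 120 and 3942 in P1 bladders. Alb was thus far higher in P1 replicate 3 than on the other bladder arrays, which the sum does not show. The part of other tissues in the Cyp2e1 and Cyp2f2 values was not tested. Adult replicate 2 was in turn the highest adult array for Fmo5, Cyp2s1, Cyp4f15 and Inmt. It was also highest for the summed smooth muscle markers, at 440800 against 296500 and 296100 in adult replicates 1 and 3, and for the fibroblast markers, at 249700 against 159600 and 156300. Of the 9 smooth muscle markers, however, 5 were highest and 4 lowest there among adult arrays, so the list did not move as 1. Of the 9 fibroblast markers, 6 were highest and 1 lowest there. The macrophage markers summed to 44440 in adult replicate 2, against 22940 in replicate 1 and 24360 in replicate 3, and the urothelial markers to 149600, against 121600 and 123700. In adult replicate 2, 7 of the 8 macrophage markers were highest and 0 lowest, and 8 of the 9 urothelial markers were highest and 1 lowest. The part of these cells in the values of the 4 genes was not tested.

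**Figure D2:**
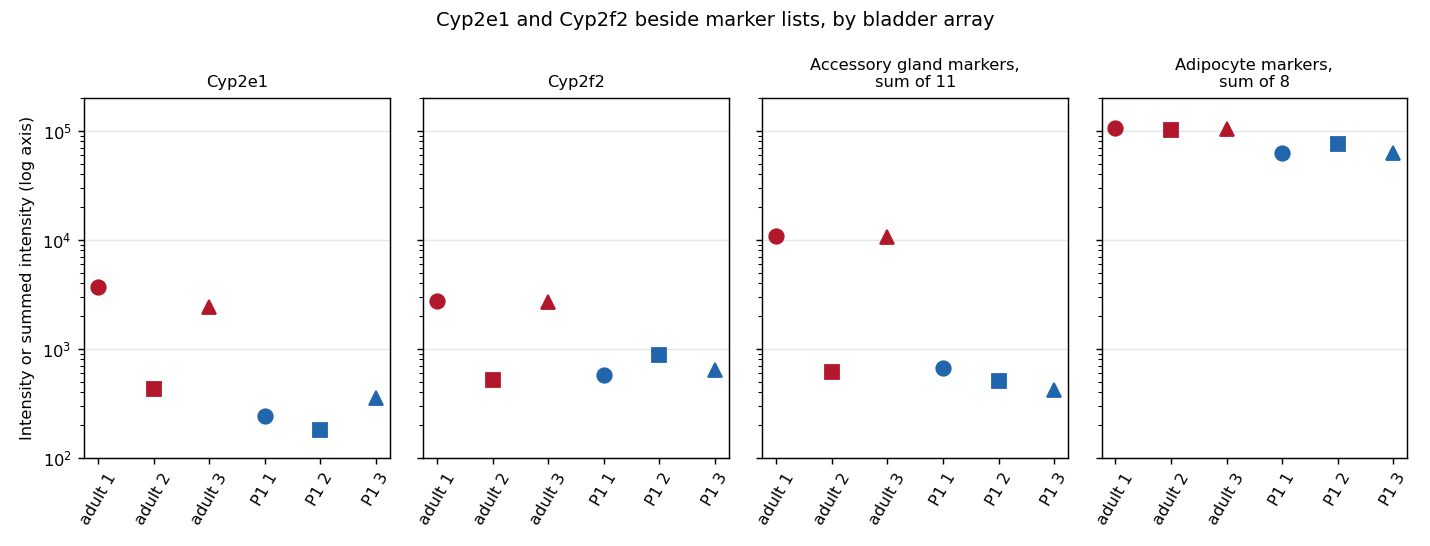
Intensity of Cyp2e1 and Cyp2f2 and summed intensity of 11 accessory gland markers and 8 adipocyte markers (vertical log axis) on each bladder array, adult replicates left of P1 replicates. Adult replicate 2 is low for both genes and for the accessory gland sum (618, against 10830 and 10560 in adult replicates 1 and 3). The adipocyte sum lies between 100700 and 106200 on the adult arrays, although 7 of its 8 markers were lowest there in replicate 2.

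Cyp1b1, Cyp4b1 and Fmo1 had overlapping adult and P1 values. Cyp1b1 (chromosome 17, 79706940 to 79715061), which oxidises oestrogens and polycyclic hydrocarbons, read 12435, 7419.7 and 8896 in adult bladders, against 11922, 3482 and 5715 in P1 bladders, and 8427 in the whole newborn. The P1 arrays differed among themselves by 3.42 times, and the log2 difference was 0.59 (95% interval -0.35 to 1.54, limma adjusted p = 0.443). Its 2 other probe sets disagreed in direction, at 1.13 (adjusted p = 0.274) and -2.02 (adjusted p = 0.0998), and the mean of its probe sets gave -0.10.

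Cyp4b1 (chromosome 4, 115624698 to 115647721), which activates aromatic amines and furans, read 451, 452 and 717 in adult bladders, against 557, 1027 and 141 in P1 bladders, and 2493 in the whole newborn. P1 replicates 2 and 3 were the highest and the lowest of the 6 bladder arrays. The log2 difference was 0.21 (95% interval -1.12 to 1.54, limma adjusted p = 0.872) and became -0.48 without P1 replicate 3. Fmo1 (chromosome 1, 162829561 to 162866610), which oxygenates amine and thioether drugs, read 2759, 1423 and 2879 in adult bladders, against 1632, 2662 and 1081 in P1 bladders, and 4379 in the whole newborn. Its log2 difference was 0.41 (95% interval -0.50 to 1.32, limma adjusted p = 0.595), and adult replicate 2 was again the lowest adult array.

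**Figure D3:**
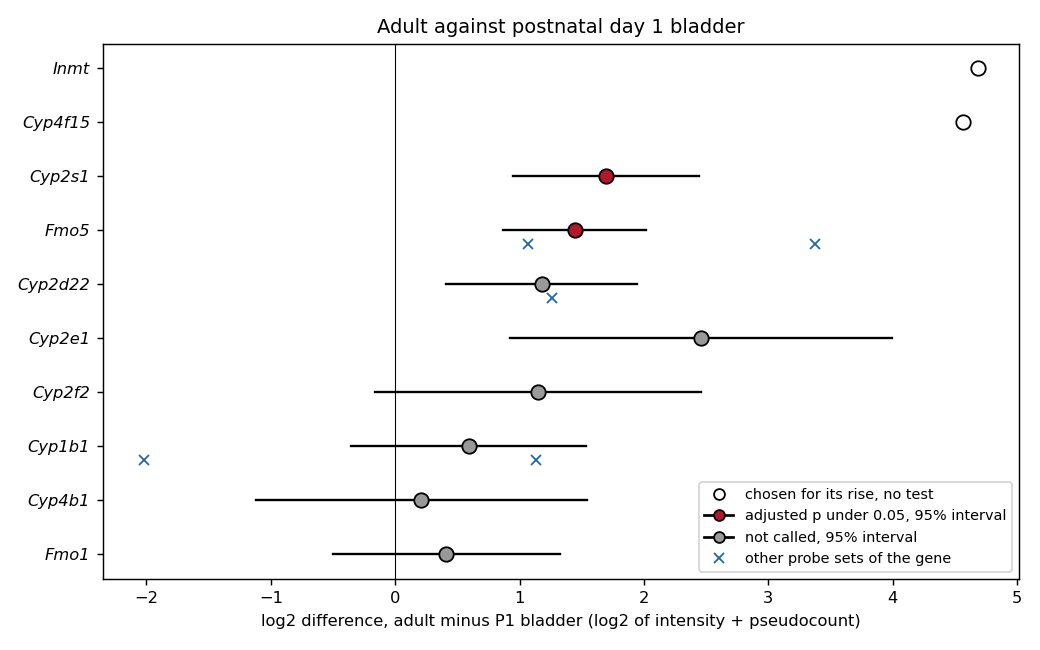
Log2 difference, adult minus P1 bladder, of the 10 genes (horizontal axis), with 95% intervals for the 8 tested genes. Filled red points passed the test (Fmo5 and Cyp2s1), grey points did not, open points are the 2 genes chosen for their rise, and crosses are further probe sets, which lie on opposite sides of 0 for Cyp1b1.

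Against the whole newborn, Fmo5 was higher and Cyp2e1 lower in bladders of both stages, and the other 6 tested genes were not called. In P1 bladder, 1 of the 8 tested genes was called higher and 1 lower, where 3.19% of 13745 tested genes were called higher and 6.39% lower. In adult bladder, again 1 was called higher and 1 lower, where 6.1% of 13504 genes were called higher and 9.23% lower. Both comparisons share the whole-newborn array, whose spread was taken from the bladder arrays. Median centring raised all differences by 0.68 (P1) and 0.67 (adult) on the log2 scale. Of all genes called in P1 bladder, 33.3% were higher as scaled by the authors, 65.0% after median centring and 48.4% after quantile normalization. In adult bladder the share was 39.8%, 67.2% after median centring and 50.5% after quantile normalization.

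Fmo5 was higher than in the whole newborn by 4.58 log2 in adult bladder (SE 0.37, limma adjusted p = 0.000239) and by 3.14 in P1 bladder (SE 0.37, limma adjusted p = 0.00151). Both calls held under all 15 alternatives. Probe set 1421709_a_at gave 3.42 in adult and 2.36 in P1 bladder (limma adjusted p = 0.00136 and 0.011). Probe set 1440899_at gave 4.03 in adult bladder (limma adjusted p = 0.0007), whereas its 0.65 in P1 bladder was not called (adjusted p = 0.414).

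Cyp2e1 stood at 4.59% of the whole-newborn intensity in adult and 0.542% in P1 bladder. Its log2 difference was -4.86 in adult bladder (SE 0.96, limma adjusted p = 0.0129) and -7.32 in P1 bladder (SE 0.96, limma adjusted p = 0.00272), and both calls held under all 15 alternatives. The 9 measured hepatocyte markers summed to 443800 on the whole-newborn array, none at 0, and their part in the Cyp2e1 value there was not tested.

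Cyp2f2 differed by -1.61 in adult (95% interval -3.47 to 0.26) and -2.75 in P1 bladder (-4.63 to -0.88), with limma adjusted p of 0.257 in adult and 0.0817 in P1 bladder. The P1 difference was called in 4 of 15 alternatives. Among them were the mean of probe sets (limma adjusted p = 0.0469) and the setting without adult replicate 2 (limma adjusted p = 0.0066). Without that replicate the difference kept its size, with an SE of 0.38 against 0.83 with all arrays. The SE also fell, to 0.488, with adult replicate 2 as the sole adult array. Cyp4b1 differed by -2.14 in adult and -2.35 in P1 bladder (limma adjusted p = 0.141 and 0.133), and Fmo1 by -0.95 in adult and -1.36 in P1 bladder (0.337 and 0.197). Cyp2s1 differed by 0.70 in adult and -0.998 in P1 bladder (limma adjusted p = 0.398 and 0.25), and Cyp2d22 by 1.12 in adult and -0.06 in P1 bladder (0.193 and 0.963). Cyp1b1 differed by 0.15 in adult and -0.44 in P1 bladder (limma adjusted p = 0.902 and 0.724). The signs of Cyp1b1 in both stages and of Cyp2d22 in P1 bladder turned under other scalings. The other probe set of Cyp2d22 gave -0.326 in adult and -1.585 in P1 bladder (limma adjusted p = 0.823 and 0.233). Those of Cyp1b1 disagreed in adult bladder, at 2.365 and -2.023 (limma adjusted p = 0.108 and 0.2). In P1 bladder they gave 1.232 and -0.007 (limma adjusted p = 0.44 and 0.998). Inmt stood at 3.45 in adult and -1.23 in P1 bladder and Cyp4f15 at 3.04 in adult and -1.53 in P1 bladder, as a description. After median centring the P1 values were -0.55 for Inmt and -0.85 for Cyp4f15.

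**Figure D4:**
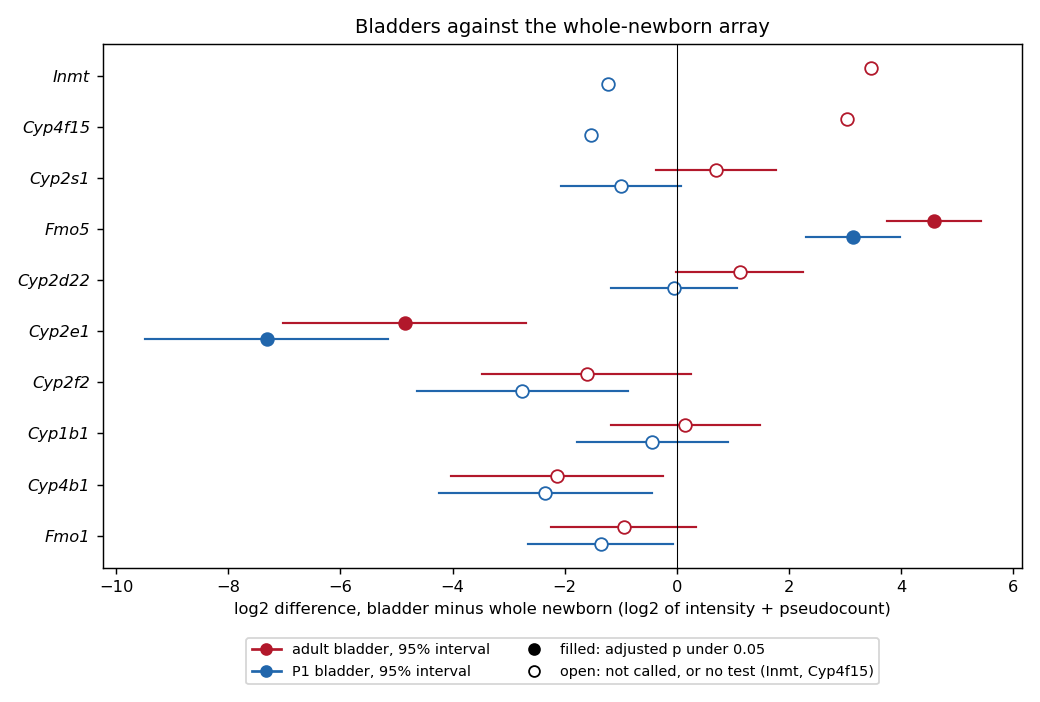
Log2 difference, bladder minus whole newborn (horizontal axis), of the 10 genes in adult (red) and P1 (blue) bladder, with 95% intervals for the 8 tested genes. Filled points passed the test: Fmo5 lies above 0 and Cyp2e1 below 0 in both stages.

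Other genes of the same pathways were taken from 8 lists with 157 genes on the array besides the 10 above. Of 77 that passed the filter between stages, 12 were called higher in adult bladder and 2 lower, where 4.02% of all tested genes were called higher and 4.95% lower. Of the 75 that lay above the array median on at least 1 array of each group, 11 were called higher and 2 lower. The count of 14 called genes was 4 to 16 without 1 bladder array and 1 with adult replicate 2 as the sole adult array. Of 47 further P450s of families 1 to 4, 9 were tested between stages and 3 were called higher, 0 lower. Against the whole newborn, 19 of 33 tested were called lower in adult bladder and 19 of 30 in P1 bladder. The filter fixes most of these calls, since 17 of the 19 in adult and 18 of the 19 in P1 bladder were above the array median on the whole-newborn array alone. Among those above the median on at least 1 bladder array, 2 of 14 were called lower in adult and 1 of 10 in P1 bladder, and 0 were called higher in either. Many of these P450s are known as liver enzymes, and 14 of the 47 were at or below the array median on all 7 arrays.

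The 3 called P450s were Cyp4v3, a fatty acid hydroxylase, Cyp2j9, of the CYP2J subfamily, and Cyp1a1, the classic target of the aryl hydrocarbon receptor. Cyp4v3 read 5497, 8919 and 6434 in adult bladders, against 1599, 2210.5 and 1347 in P1 bladders (log2 difference 1.98, limma adjusted p = 0.00639). Cyp2j9 read 836, 722 and 899 in adult bladders, against 245, 231 and 206 in P1 bladders (1.65, limma adjusted p = 0.0179). Among its P1 values only that of replicate 2 lay above its array median, so Cyp2j9 passed the filter only with the adult arrays, where it was high. Cyp1a1 read 439, 457 and 568 in adult bladders, against 139, 100.3 and 84.8 in P1 bladders (log2 difference 1.78). All 3 P1 values of Cyp1a1 lay under their array medians, so it passed the filter through the adult arrays where it was high, and its call is not read as a result. No groups overlapped for these 3, and leaving out single arrays ended the call of Cyp2j9 (adjusted p up to 0.112).

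Among 9 tested P450s of sterols, steroids, vitamins and eicosanoids, 1 was called, in the other direction. Cyp51, the lanosterol demethylase of cholesterol synthesis, read 1314, 834 and 997 in adult bladders, against 2668, 7849.8 and 5476 in P1 bladders (-2.19, limma adjusted p = 0.0131). All 3 P1 arrays lay above all adult arrays, and the call was lost in 3 of 15 alternatives (adjusted p 0.0578 to 0.114), among them without adult replicate 3 (0.0578). Its other probe sets gave -1.69 (limma adjusted p = 0.0177) and -1.83 (not called, adjusted p = 0.162). Of the 2 further flavin monooxygenases on the array, Fmo2, the lung form, was tested between stages and not called (0.98, limma adjusted p = 0.163), with 12288, 6783 and 12589 in adult and 5359, 8182 and 3089 in P1 bladders. Fmo2 was called higher than in the whole newborn in adult (3.14, limma adjusted p = 0.00763) and in P1 bladder (2.16, limma adjusted p = 0.0491).

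The list of electron donors and related proteins had 9 measured genes. P450 oxidoreductase was not among them and was therefore not tested. Of 8 tested genes of this list, 1 was called higher, Cyb5b, the cytochrome b5 of the outer mitochondrial membrane (0.91, limma adjusted p = 0.0465). It read 22615, 20244 and 24092 in adult bladders, against 9389, 15535 and 11325 in P1 bladders, and the call was lost in 10 of 15 alternatives (adjusted p 0.0624 to 0.33). Its other probe sets gave 0.35 and 0.34 and were not called (limma adjusted p = 0.463 and 0.587). Of 11 tested genes of haem synthesis and breakdown, 0 were called, with a median of -0.14. Of 13 tested receptors and factors, 1 was called higher and 1 lower. Nfe2l2, the factor of the antioxidant response, gave 1.18 (limma adjusted p = 0.0159), with 10714, 9525 and 11411 in adult and 3960.2, 5147 and 4844 in P1 bladders. Its other probe set went the other way (-2.31, limma adjusted p = 0.0222), so that its direction is uncertain. Arnt2, a partner protein of the family of the aryl hydrocarbon receptor, gave -1.56 (limma adjusted p = 0.0382), a call lost in 10 of 14 alternatives.

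Of 7 tested small-molecule methyltransferases besides Inmt, 1 was called higher, Mettl7a1 (1.79, limma adjusted p = 0.0065). It read 10096, 11942 and 11249 in adult bladders, against 4403, 2439 and 2943 in P1 bladders, without overlap. Of 19 tested genes of conjugation and hydrolysis, 6 were called higher and 0 lower, with a median log2 difference of 0.97. Aox1, aldehyde oxidase, read 5367, 6093 and 3989.7 in adult bladders, against 627, 406 and 578 in P1 bladders (3.15, limma adjusted p = 0.0012), and its call held under all 15 alternatives. Ugt2b34, a glucuronosyltransferase, read 8011, 5569 and 5339 in adult bladders, against 826, 1138 and 1447 in P1 bladders (2.43, limma adjusted p = 0.00279). The epoxide hydrolases Ephx1 (1.94, limma adjusted p = 0.0166) and Ephx2 (2.02, limma adjusted p = 0.0122) were also higher. Both lost their calls without adult replicate 1 (adjusted p = 0.0652 and 0.0636) and without adult replicate 3 (0.0842 and 0.0715).

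**Figure D5:**
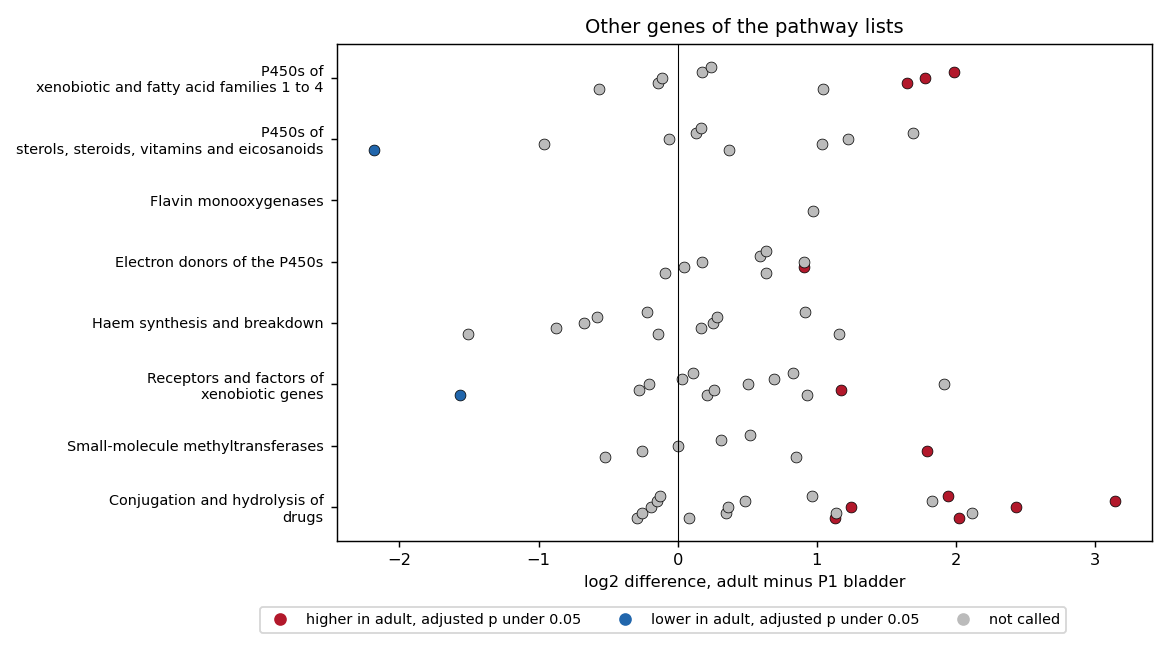
Log2 difference, adult minus P1 bladder (horizontal axis), of the 77 tested genes of 8 pathway lists, without the 10 genes described above. Each point is a gene; red points were called higher in adult bladder (12), blue points lower (2), and grey points were not called.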

How the data were processed

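RNA of 6 bladders and 1 pool of whole newborns was measured on Affymetrix mouse 430 2.0 arrays after 2 rounds of amplification, per the labels. The deposited values are linear intensities without detection calls. The authors used GCOS, per the submitters' processing notes, and no source used here gives its version, the summary method or a scaling target. After trimming 2% of values at each end, every array had a mean of 1500.01, so arrays were scaled alike. The number of arrays limits the precision.

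Of 45037 probe sets, without 64 controls, 34945 name 1 gene, 932 several and 9160 none in the platform annotation. Symbols were updated to RefSeq GRCm38.p6, which also gave the promoters. Log2(intensity + 49), with 49 the rounded 20th percentile of all values, was tested with limma 3.58.1 in R 4.3.3 (eBayes with a trend, Benjamini-Hochberg adjusted p under 0.05, both directions). Groups followed the labels. The stage fit held 6 arrays. The whole-newborn fits held all 7, with a probe set above the array median on at least 1 of 4 arrays compared, and the single array was assumed to vary like the bladders. The script was tested on simulated data.

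The genes, lists and tests were chosen with earlier results of these data known. Named were the 10 genes, up to 4 called genes of each pathway list by adjusted p and called genes against the main direction, the 5 genes most like Inmt and Cyp4f15, and up to 3 genes of the marker lists. Alternatives were pseudocounts of 12.25 and 196, median centring, quantile normalization, no filter, no trend, the mean of probe sets, each bladder array left out, adult replicate 2 as the sole adult array, and the 2 arrays with the highest spike-in signal of their groups left out.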

Additional observations from a re-analysis of the deposited data

How the results depend on the processing

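Genes called between adult and P1 bladder numbered 1070, 399 to 1386 without 1 bladder array, and 190 with adult replicate 2 as the sole adult array. Between adult bladder and whole newborn they numbered 2071, 1229 to 2887 without 1 bladder array, 824 with adult replicate 2 alone and 3558 without adult replicate 2 and P1 replicate 3, which had the most spike-in signal of their groups. Between P1 bladder and whole newborn they numbered 1317, 945 to 1636 without 1 bladder array, 698 with adult replicate 2 alone and 2225 without the spike-in arrays. Of the 8 tested genes, 2 were called between stages, 1 to 5 without 1 bladder array, 4 by the mean of probe sets, 1 with adult replicate 2 alone and 4 without the spike-in arrays. Pathway genes called between stages numbered 14, 4 to 16 without 1 bladder array, 9 after median centring and 1 with adult replicate 2 alone, a count chosen after seeing the data. Leaving out arrays means fewer samples; the cause of the other shifts was not tested.

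Some uncalled differences changed sign. Between stages, Cyp1b1 gave -0.097 by the mean of probe sets, Cyp2f2 -0.379 and Fmo1 -0.231 with adult replicate 2 alone, and Cyp4b1 -0.485 without P1 replicate 3 (up to 0.764 without another array) and -0.383 without the spike-in arrays. Nfe2l2, which was called, gave -0.564 by the mean of probe sets. Between P1 bladder and whole newborn, Cyp1b1 gave 0.242 after median centring and 0.261 by the mean of probe sets, and Cyp2d22 gave 0.623 after median centring, 0.527 after quantile normalization and 0.128 without P1 replicate 2, where leaving out P1 replicate 1 gave -0.243. Between adult bladder and whole newborn, Cyp1b1 gave -0.026 after quantile normalization, -0.052 without adult replicate 1 (0.318 without adult replicate 2) and -0.183 with adult replicate 2 alone. Over the tested named genes and comparisons, 459 of 538 alternative values kept direction and side of the threshold, 51 lost a call, 14 gained one and 14 changed sign. For Inmt and Cyp4f15, which have no test, 82 of 90 moved by less than 1 SD between replicates and 8 by more. No paired analysis was possible because the labels give the bladders no shared replicate numbers. The filter leaves out dim genes, whose differences were tested only in the setting without a filter.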
